A study of Saccharomyces cerevisiae with 30 samples.

Results

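The 65 genes described here carry symbols used for proteins of the yeast mitochondrial ribosome. They are the genes of 6101 in the deposited tables whose symbol is MRPL, MRPS or RSM followed by a number, or one of 11 MRP symbols (MRP1, MRP2, MRP4, MRP7, MRP10, MRP13, MRP17, MRP20, MRP21, MRP49 and MRP51). The rule used names only and no measured value. By the protein names in the reference gene table, except for RSM22, 37 were counted in the large and 28 in the small subunit. Likewise 40 were counted as homologues of bacterial ribosomal proteins and 25 as mitochondrion-specific. RSM22 has no such name in the table, which therefore does not place it in the ribosome. It was assigned here to the small-subunit and mitochondrion-specific genes. All 65 are protein-coding genes of the nuclear chromosomes.

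Mitochondria carry their own ribosome, which translates the few proteins encoded in mitochondrial DNA, chiefly core subunits of the respiratory chain and of ATP synthase. Its proteins are made in the cytosol from nuclear genes and imported, so that assembly of the respiratory chain depends on both genomes. In budding yeast the RNA-binding protein Puf3 binds the 3′ ends of many mRNAs for mitochondrial ribosomal proteins at a site of the form TGTANATA (in DNA letters), and cells that ferment glucose have less need of respiration than cells on poorer carbon sources.

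RNA was sequenced from 30 libraries of Saccharomyces cerevisiae BY4741, a haploid laboratory strain, in 10 groups of 3. Cells growing on glucose in YPD, a rich medium, were shifted to YP with either 2% glucose or 2% sucrose and collected after 30 min. A set of 12 libraries, here the Ada3 set, holds Ada3-3KR, which the labels call an acetylation mutant of Ada3 (a subunit of SAGA), and wild type (WT), each in both sugars. A set of 18 libraries, here the bromodomain set, holds its own WT, Gcn5m and Spt7m, mutants of the bromodomains of Gcn5 and Spt7, each in both sugars. SAGA is a coactivator complex that acetylates histones through Gcn5, and bromodomains bind acetylated lysine. The labels do not give the substituted residues, how the alleles were introduced or whether a mutant is 1 clone, and they name no separate cultures for the replicates, so a p-value may measure technical spread alone.

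Levels are FPKM (fragments per kilobase of gene and per total of mapped fragments), which are corrected for length and relative to the RNA of the whole library. In bulk RNA, a smaller share of cells that use a gene and less of its RNA per cell cannot be told apart. Differences are on the log2(FPKM + 1) scale with the standard error (SE) from limma, and the threshold for a call was an adjusted p of 0.05 (Benjamini-Hochberg, over the 5830 genes tested in the Ada3 set or the 5841 in the bromodomain set). All 65 genes were tested in both sets, and none was listed at 0 in any library. For a single gene, an exact permutation test of 3 libraries against 3 cannot give a p below 0.1. Replicate libraries had correlations across genes of 0.994 to 0.997 (Ada3 set) and 0.992 to 0.998 (bromodomain set), and none were identical. Libraries of different groups had 0.971 to 0.988 and 0.914 to 0.993, so these ranges overlapped in the bromodomain set. Genes of mating type a were high in every library (MFA2 at 2189 FPKM or more in the Ada3 set). Of the genes of mating type alpha, MF(ALPHA)1 was at or under 1.08 FPKM there. STE3 was at 1.88 to 3.90 and MF(ALPHA)2 at 9.25 to 13.0 FPKM. URA3, which BY4741 lacks, was listed at 0 to 2.30 FPKM in WT of the bromodomain set, at 223 to 444 in Gcn5m and at 7079 to 11464 in Spt7m. Its level thus moved with both of these genotypes. Against WT in glucose and sucrose, GCN5 was lower in Gcn5m (-0.56 and -0.62) and in Spt7m (-0.40 and -0.44). NGG1, the gene of Ada3, was higher in Ada3-3KR (0.39 and 0.42), as was GCN5 (0.25 and 0.25). SPT7 was not called in Spt7m (-0.12 and -0.09). The part of these levels in the results below was not tested.

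The sequence beyond the stop codon is shown first because nearly all 65 genes share a feature there that the naming rule did not use. The 200 bases after the stop codon held TGTANATA on the transcribed strand in 64 of 65 genes (98.5%), among them all 37 large-subunit genes and 27 of 28 small-subunit genes. The same window held it in 844 of 6001 nuclear protein-coding genes (14.1%), in 6 of 138 cytosolic ribosomal protein genes (4.35%) and in 4 of 34 nuclear respiratory chain genes (11.8%). RSM22, the gene with the lowest level of the 65, was the one without a match. A match is a description of the letters in this window, which can reach into a neighbouring gene. The sites of the genes whose values are given below are printed from build R64 in the sense of the mRNA, with the motif in capitals:
RSM10: gatttcgtactTGTAAATAaaataggtgaa
RSM27: aactcatttcaTGTACATAcaaaatcaaaa
MRPL16: ccatgtatacaTGTATATAactattgaaaa
MRPL10: atattctcactTGTACATAccttaagatat
MRP4: taacctaaactTGTACATAtgcccatatat
MRPS28: gtagaaaagctTGTAAATAagaaaccgtca
RSM7: gtaaacttgccTGTACATAaacacatttat
RSM26: atcttatatacTGTAAATAgttttatttta
MRPL20: aataacaatcgTGTAAATActactctataa
MRP7: ttaagaatgccTGTAAATAttactattttg
They lie at chrIV:540462-540491 (plus strand) for RSM10, chrVII:922547-922576 (plus strand) for RSM27, chrII:146900-146929 (plus strand) for MRPL16, chrXIV:103075-103104 (minus strand) for MRPL10, chrVIII:100429-100458 (plus strand) for MRP4, chrIV:1147197-1147226 (plus strand) for MRPS28, chrX:638192-638221 (minus strand) for RSM7, chrX:619111-619140 (plus strand) for RSM26, chrXI:599049-599078 (minus strand) for MRPL20 and chrXIV:621243-621272 (minus strand) for MRP7. In these genes the base at the N of the motif is A, C or T.

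Over the 64 genes there were 78 sites, of which 36 had A at the N, 24 had T, 17 had C and 1 had G. The motif began 8 to 165 bases after the stop codon, with a median of 54.5. A C stood 2 bases before the motif in 51 of the 78 sites (65.4%), against 205 of 845 sites in the 780 other genes with a match (24.3%). One match was found in 51 genes and more than 1 in 13 genes. RSM19, a small-subunit homologue of bacterial S19, had 3 sites within less than 100 bases, and MRPL3, a mitochondrion-specific protein of the large subunit, had the site with G. They are printed to show several copies in 1 gene and the rarest form:
RSM19: gggatctagTGTATATAgatttctagat
RSM19: atgatatatcaTGTAAATAagatcaagcca
RSM19: cagactcgggcTGTATATAtatatatatat
MRPL3: gtttgccatttTGTAGATAgagaactcctt
MRPL3: gaatacattctTGTACATAtatatatacac
They lie at chrXIV:695024-695051 (minus strand) for RSM19, chrXIV:694996-695025 (minus strand) for RSM19, chrXIV:694968-694997 (minus strand) for RSM19, chrXIII:323054-323083 (plus strand) for MRPL3 and chrXIII:323089-323118 (plus strand) for MRPL3. All sequences are from the RefSeq reference of build R64, the build named in the submitters' processing notes.

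Upstream of the start codon the 65 genes held no such shared feature among the 3 motifs searched on both strands of 300 bases. CCAAT, the motif bound by the Hap activator complex of respiratory genes, was in 24 of 65 (36.9%), against 41.8% of all 6001 genes and 30 of 34 nuclear respiratory chain genes (88.2%). AATTTT was in 26 of 65 (40%), against 54.1% of all genes. GATGAG was in 12 of 65 (18.5%), against 19.1% of all genes. Both AATTTT and GATGAG are cores of elements found before genes for building the cytosolic ribosome. The windows of RSM10 and MRPL16, the genes of each subunit with the largest difference between sugars in WT of the bromodomain set, are shown with CCAAT or its reverse complement ATTGG in capitals:
RSM10: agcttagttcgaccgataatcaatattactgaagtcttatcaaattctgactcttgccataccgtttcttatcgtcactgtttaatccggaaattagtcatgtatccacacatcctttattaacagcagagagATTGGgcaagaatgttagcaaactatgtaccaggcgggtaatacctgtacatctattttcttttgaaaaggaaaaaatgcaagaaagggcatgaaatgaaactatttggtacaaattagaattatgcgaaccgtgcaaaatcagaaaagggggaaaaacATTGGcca
MRPL16: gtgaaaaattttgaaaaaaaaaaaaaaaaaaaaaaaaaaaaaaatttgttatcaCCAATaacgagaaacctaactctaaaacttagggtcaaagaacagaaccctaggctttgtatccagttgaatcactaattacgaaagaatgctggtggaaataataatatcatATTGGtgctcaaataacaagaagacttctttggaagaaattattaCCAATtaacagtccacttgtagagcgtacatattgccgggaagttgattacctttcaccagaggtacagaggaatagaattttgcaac
They are chrIV:539503-539802 and chrII:145887-146186, both on the plus strand and ending at the base before the start codon. RSM10 holds 2 matches and MRPL16 holds 3, while the windows of RSM27, MRP4, MRPS28 and RSM26 hold none.

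Levels of the 65 genes were of the same order in both sets. In WT in glucose the median gene of a library had 50.1 ± 1.98 FPKM in the Ada3 set and 51.5 ± 0.727 FPKM in the bromodomain set (SD, n = 3). Together the 65 genes made up 0.292% and 0.287% of all FPKM there. Across the 65 genes, the levels in WT in glucose correlated between the sets at Pearson's r = 0.97 (Spearman's rho = 0.96), a description over genes that share a length correction in both tables.

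Among small-subunit genes MRPS12, a homologue of the bacterial decoding-centre protein S12, had the highest mean, with 314 FPKM in the Ada3 set and 425 in the bromodomain set. The next were RSM18 (110.4) and RSM19 (108) in the Ada3 set, and RSM19 (150.3) and MRP10 (135) in the bromodomain set. RSM22 was lowest with 11.1 and 17.8, followed in both sets by MRP13 (31.3 and 44.2) and RSM23 (37.98 and 48.9). Among large-subunit genes MRPL39, a homologue of L33, was highest in both sets with 164 and 229 FPKM, and MRPL51 second with 134 and 142. MRPL36 (92.5) was the third in the Ada3 set and MRPL37 (139.6) in the bromodomain set. The lowest were MRPL4 (33.4), MRPL11 (35.7) and MRPL32 (36.1) in the Ada3 set and MRPL32 (44.2), MRPL11 (47.8) and MRPL24 (50.4) in the bromodomain set.

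**Figure D1:**
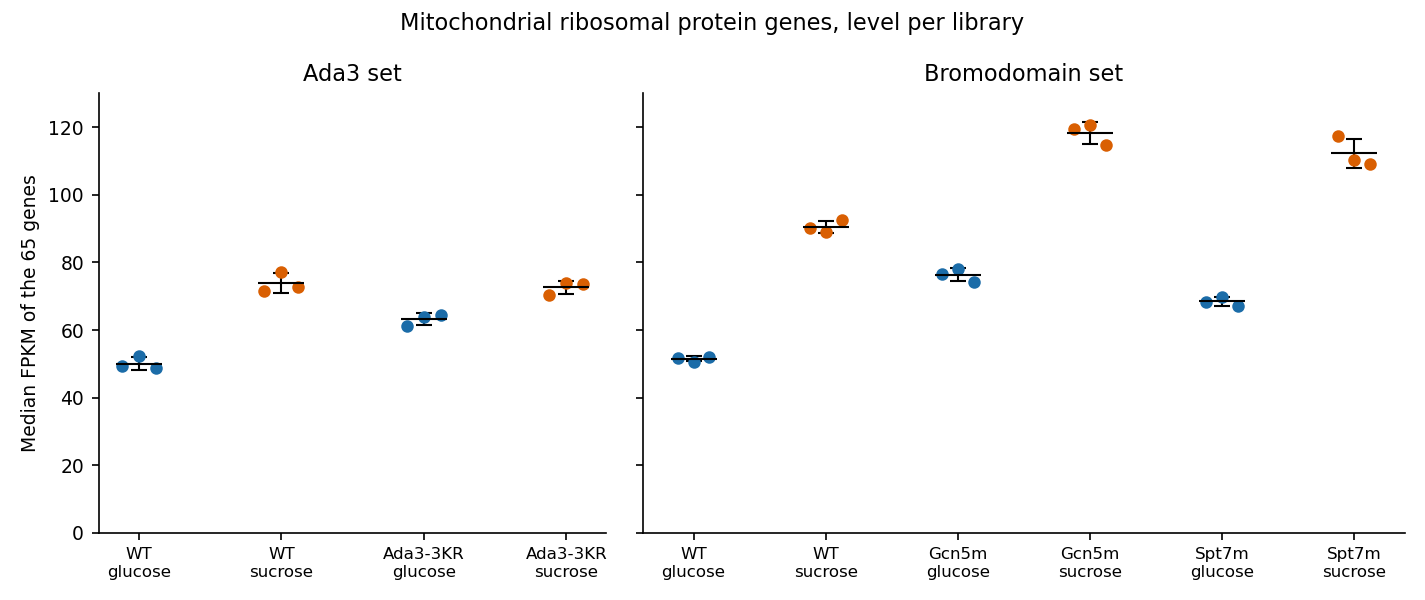
Median FPKM of the 65 genes in each library (points), with the mean and SD of each group of 3 (bars), in glucose (blue) and sucrose (orange). Sucrose libraries are above glucose libraries of the same strain and set in all 5 such pairs of groups, and Ada3-3KR in glucose sits between both WT groups.

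In WT, all 65 genes were higher after 30 min in sucrose than in glucose, in both sets. In the Ada3 set 65 rose and 0 fell, where 32.7% of all genes tested rose and 13.9% fell. The median difference was 0.50, against 0.08 for all genes, with a range of 0.23 to 0.82. In the bromodomain set 65 rose and 0 fell, where 50.9% of all genes rose and 15.7% fell. The median was 0.81, against 0.17 for all genes, with a range of 0.58 to 1.19, and 6 genes reached 2-fold. The share of all FPKM went from 0.292% to 0.420% in the Ada3 set and from 0.287% to 0.530% in the bromodomain set. For all 65 genes the 3 libraries in sucrose lay above the 3 in glucose in each set, where 37.8% and 52.2% of all genes did so.

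RSM27, a mitochondrion-specific protein of the small subunit, rose most in the Ada3 set. Its FPKM in WT were 43.3, 42.5 and 45.9 in glucose and 73.7, 77.3 and 83.2 in sucrose, and the groups did not overlap (0.82 ± 0.06, limma adjusted p = 4.91e-08). MRPL10, a homologue of L15 of the large subunit, had 32.4, 39.0 and 33.8 in glucose and 59.7, 56.9 and 58.3 in sucrose (0.72 ± 0.08). Its lowest sucrose library was well above its highest glucose library. MRPS17 (0.73 ± 0.06), a homologue of S17, and RSM7 (0.72 ± 0.05), a homologue of S7, were also among the 4 largest.

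RSM10, a homologue of S10 of the small subunit, rose most in WT of the bromodomain set. It had 66.7, 62.1 and 74.9 FPKM in glucose and 151, 149 and 168 in sucrose (1.19 ± 0.06, limma adjusted p = 9.83e-12), so that every sucrose library was higher than every glucose library. MRPL16, a homologue of L16 of the large subunit, had 53.4, 51.3 and 47.2 FPKM in glucose and 102, 115 and 115 in sucrose (1.11 ± 0.05). The groups again did not overlap. MRPL20 (1.05 ± 0.07), which is mitochondrion-specific, and RSM19 (1.05 ± 0.09) followed.

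Both subunits moved alike in WT. The medians of large-subunit and small-subunit genes were 0.51 and 0.49 in the Ada3 set, and 0.79 and 0.81 in the bromodomain set. Homologues of bacterial proteins and mitochondrion-specific proteins had medians of 0.50 and 0.48 in the Ada3 set and 0.80 and 0.81 in the bromodomain set. Genes with 1 TGTANATA site had medians of 0.50 and 0.78 in the sets, and genes with 2 or more had 0.51 and 0.85. RSM22, without a site, rose by 0.45 and 0.88, inside the range of the others. Across the 65 genes the differences of the separate WT libraries of both sets correlated at r = 0.53 (rho = 0.54). The difference in the bromodomain set had r = -0.07 with the level in glucose in the Ada3 set, and coding length had r = 0.03 and -0.18 with the difference in the Ada3 and bromodomain sets.

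**Figure D2:**
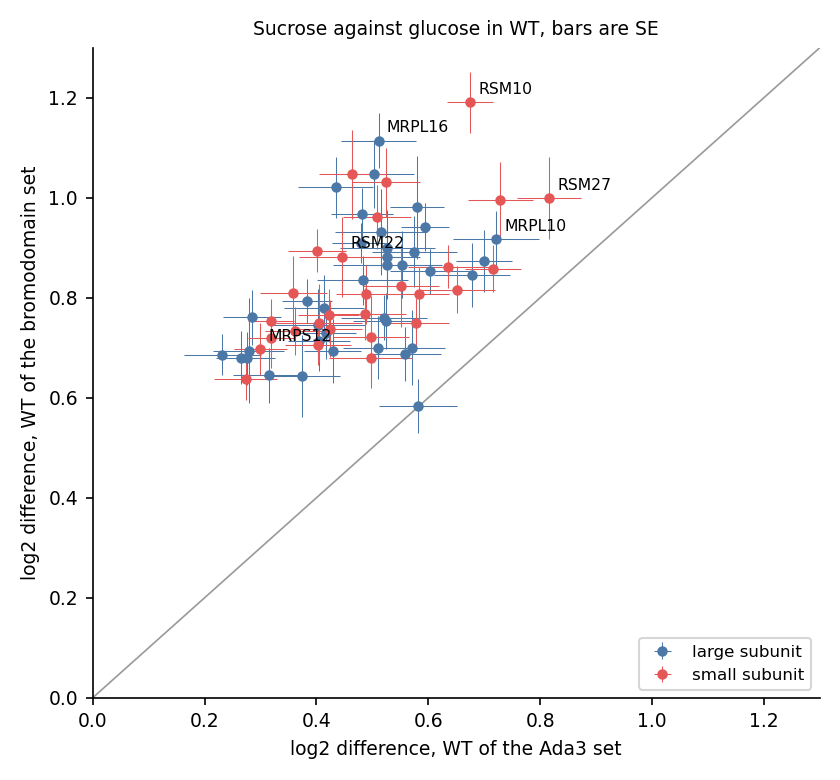
Difference between sucrose and glucose in WT of the Ada3 set (x) and of the bromodomain set (y) for each of the 65 genes, on the log2(FPKM + 1) scale, with bars of 1 SE and a line of equality. RSM27 is farthest right (0.82) and RSM10 highest (1.19), and all 65 points lie above the line.

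In the mutants, sucrose libraries were also higher for most of the genes. In Ada3-3KR 48 of 65 rose and 0 fell, where 32.9% of all genes rose and 17.7% fell. The median was 0.23, against 0.06 for all genes, with a range of -0.07 to 0.48. The largest rises were in MRPL44 (0.48 ± 0.08), MRPL20 (0.47 ± 0.07), RSM27 (0.46 ± 0.06) and RSM26 (0.44 ± 0.07), all of them mitochondrion-specific proteins. In Gcn5m 65 rose and 0 fell, where 52.2% of all genes rose and 21.8% fell, with a median of 0.60 against 0.20 for all genes. The largest rises there were in MRP7, a homologue of L27 (1.05 ± 0.04), MRPL39 (0.98 ± 0.09), MRPL16 (0.95 ± 0.05) and RSM7 (0.92 ± 0.05). In Spt7m 65 rose and 0 fell, where 51.6% of all genes rose and 24.4% fell, with a median of 0.75 against 0.19. The largest were MRPL16 (1.22 ± 0.05), MRPL39 (1.16 ± 0.09), RSM7 (1.16 ± 0.05) and MRPL10 (1.08 ± 0.06). In all, 48 of the 65 genes (73.8%) rose in each of the 5 comparisons between sugars, WT being compared once in each set. Of the 5817 genes tested in both sets, 670 (11.5%) did so. The count of 48 is that of Ada3-3KR alone, since all 65 rose in each of the other comparisons.

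These medians depend on scaling, since the median of all genes also moved with sugar. With quantile normalization or median rescaling, the median of the 65 genes was 0.38 and 0.37 in WT of the Ada3 set. It was 0.59 and 0.55 in WT of the bromodomain set. All genes then had medians of -0.03 and -0.04 in the former and -0.03 and -0.07 in the latter. In Gcn5m the median of the 65 genes was 0.33 and 0.34, where 54 genes rose in either scaling. Over all 5841 genes 1820 and 1741 rose there, with medians of -0.03 and -0.05. In Spt7m the median of the 65 genes was 0.45 and 0.48, where 64 rose. Over all genes 1974 and 1876 rose there, with medians of -0.03 and -0.07. In Ada3-3KR 39 and 33 of the 65 genes rose and 1 fell in either, where 1452 and 1431 of 5830 genes rose and 1455 and 1534 fell.

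In glucose, most of the 65 genes were higher in each of the 3 mutants than in its WT. For Ada3-3KR 58 were higher and 0 lower, where 40.2% of all genes were higher and 22.1% lower. The median difference was 0.30, against 0.09 for all genes. The largest were MRPL4, a homologue of L29 (0.47 ± 0.07), MRPS5, a homologue of S5 (0.46 ± 0.04), the mitochondrion-specific MRPL17 (0.45 ± 0.06) and MRP2, a homologue of S14 (0.43 ± 0.07). The 7 that were not called were MRPL37, MRPS12, RSM26, MRPS8, MRPL38, MRP7 and MRPL33, with differences from -0.02 to 0.20.

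For Gcn5m in glucose 64 were higher and 0 lower, where 20.8% of all genes were higher and 41.2% lower. The median was 0.54, against -0.10 for all genes. MRPL19, a homologue of L11, was the highest (0.96 ± 0.06), followed by MRPL49, a homologue of L21 (0.85 ± 0.10), MRPL38, a homologue of L14 (0.84 ± 0.07), and MRPS8, a homologue of S8 (0.82 ± 0.08). MRPL19 overlaps the locus YNL184C on the same strand by 113 bases, so reads of the pair may have been split and its value is uncertain. RSM7 was the gene not called (0.06 ± 0.05, limma adjusted p = 0.298).

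For Spt7m in glucose 60 were higher and 0 lower, where 15.7% of all genes were higher and 37.5% lower. The median was 0.35, against -0.10 for all genes. The largest were MRPL19 (0.74 ± 0.06), MRPL32, a homologue of L32 (0.66 ± 0.08), MRPL20 (0.65 ± 0.07) and RSM19 (0.62 ± 0.09). RSM7, MRPL17, MRPS5, MRPL51 and RSM25 were not called, with differences from -0.03 to 0.12. Gcn5m and Spt7m were compared with the same WT libraries, so their values are given side by side and are not independent. Genes with larger differences in Ada3-3KR tended to have smaller ones in these mutants. Across the 65 genes, the differences in glucose of Ada3-3KR and Gcn5m correlated at r = -0.29 (rho = -0.27). Those of Ada3-3KR and Spt7m correlated at r = -0.31 (rho = -0.21).

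In sucrose, Ada3-3KR and its WT differed little in these genes. Of the 65, 12 were higher and 5 lower, where 33.8% of all genes were higher and 22.2% lower. The median was 0.03, against 0.05 for all genes. Higher were MRPL20 (0.30 ± 0.07), MRPL8, a homologue of L17 (0.29 ± 0.05), MRPS16, a homologue of S16 (0.23 ± 0.05), and MRPL35, which is mitochondrion-specific (0.22 ± 0.05). Lower were MRPL24, a homologue of L28 (-0.30 ± 0.07), MRPL38 (-0.29 ± 0.07), MRP20, a homologue of L23 (-0.22 ± 0.06), and RSM27 (-0.15 ± 0.06, limma adjusted p = 0.0422). The count of lower genes ran from 3 to 9 when single libraries were left out. It was 3 without WT in sucrose replicate 2 or 3 or Ada3-3KR in sucrose replicate 1, and 9 without Ada3-3KR in sucrose replicate 2. RSM27 lost its call without WT in sucrose replicate 2 or 3 or Ada3-3KR in sucrose replicate 1 or 3 (limma adjusted p = 0.0681 to 0.183), and with only the compared groups in the fit (0.0552).

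In sucrose, most of the genes were higher in Gcn5m and in Spt7m than in their shared WT. For Gcn5m 54 were higher and 0 lower, where 28% of all genes were higher and 42.6% lower. The median was 0.32, against -0.09 for all genes. The largest were MRP17, a homologue of S6 (0.79 ± 0.08), MRP1, a mitochondrion-specific protein (0.70 ± 0.05), MRPL23, a homologue of L13 (0.69 ± 0.06), and MRPL39 (0.69 ± 0.09). For Spt7m 55 were higher and 0 lower, where 28.8% of all genes were higher and 41.5% lower. The median was 0.27, against -0.08. The largest were MRPL39 (0.68 ± 0.09), MRP1 (0.64 ± 0.05), MRPL4 (0.62 ± 0.08) and MRP17 (0.62 ± 0.08). Of the 40 homologues of bacterial proteins 36 were higher in Gcn5m and 37 in Spt7m, and of the 25 mitochondrion-specific proteins 18 were higher in each.

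**Figure D3:**
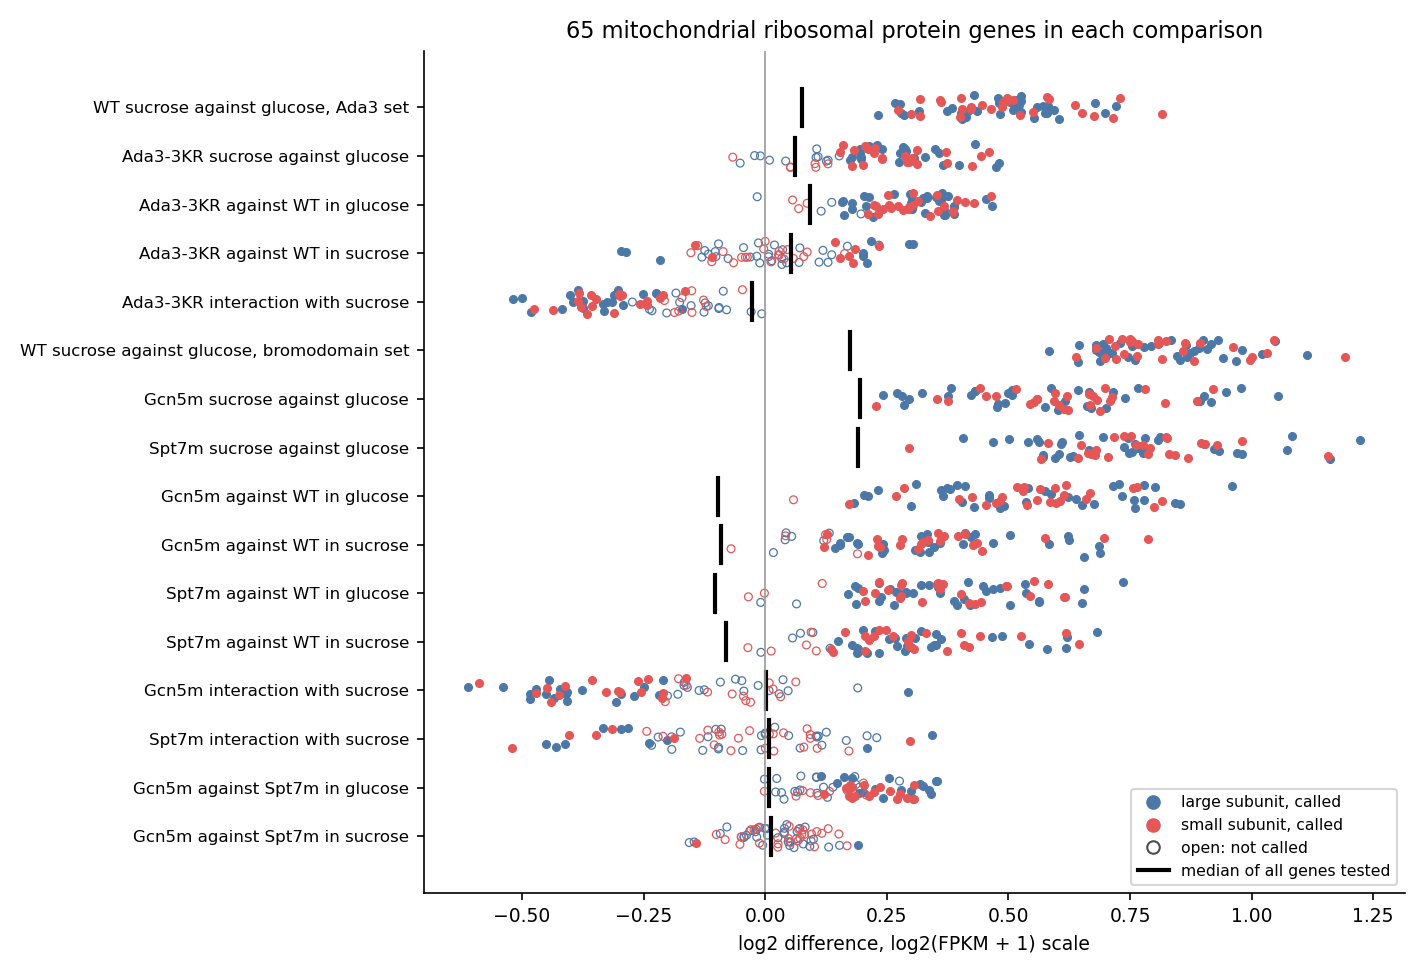
Difference of each of the 65 genes in each of the 16 comparisons, on the log2(FPKM + 1) scale, for large-subunit (blue) and small-subunit (red) genes. Filled points were called by limma, open points were not, and black bars mark the median of all genes tested. The points lie right of the black bar in every comparison between sugars in WT, Gcn5m and Spt7m, and left of zero for the Ada3-3KR interaction.

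The difference between sugars was smaller in Ada3-3KR than in its WT for many of the genes. In the interaction, which is the sucrose difference of the mutant minus that of WT, 39 of 65 were negative and 0 positive past the test, where 21.6% of all genes were negative and 17.2% positive. The median was -0.25, against -0.03 for all genes, and all 65 values were below 0. The largest were MRPL32 (-0.52 ± 0.12), MRPL24 (-0.50 ± 0.10), MRPL10 (-0.48 ± 0.11) and RSM7 (-0.48 ± 0.07). In Ada3-3KR, MRPL10 had 47.5, 44.3 and 43.3 FPKM in glucose and 51.5, 60.1 and 49.1 in sucrose. Its mutant glucose libraries were above all WT glucose libraries, and its mutant sucrose libraries ran from below to slightly above the WT ones. RSM27 in Ada3-3KR had 48.5, 50.4 and 54.1 FPKM in glucose and 67.4, 73.8 and 70.3 in sucrose, a narrower gap between sugars than in WT. For the median gene the same order held, with 50.1 ± 1.98, 63.2 ± 1.75, 72.7 ± 1.90 and 73.9 ± 3.02 FPKM (SD, n = 3) in WT in glucose, Ada3-3KR in glucose, Ada3-3KR in sucrose and WT in sucrose. The last pair overlapped, and the other neighbours in this order did not.

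In the bromodomain set the interaction was negative for 35 of 65 genes in Gcn5m and positive for 1, where 20.7% of all genes were negative and 20.9% positive. The median was -0.21, against 0.00 for all genes. Past the test were MRPL44 (-0.61 ± 0.10), RSM26 (-0.59 ± 0.07), MRPL20 (-0.54 ± 0.10) and MRPL38 (-0.48 ± 0.10), and MRP7 in the other direction (0.29 ± 0.06). By kind, 18 of 25 mitochondrion-specific and 17 of 40 bacterial homologues were negative. Across the 65 genes, the interactions of Ada3-3KR and Gcn5m correlated at r = -0.29 (rho = -0.30). In Spt7m 13 were negative and 3 positive, where 23.5% of all genes were negative and 23.9% positive, so that neither count of the 65 genes exceeded the share over all genes. The median was -0.07, against 0.01 for all genes. With quantile normalization 22 of the 65 were negative, where 1539 of 5841 genes were, so that their share was then above that of all genes. The median was then -0.13, against -0.01 for all genes. Negative were RSM26 (-0.52 ± 0.07), MRPL20 (-0.45 ± 0.10), MRPL32 (-0.43 ± 0.11) and MRPL37 (-0.41 ± 0.09), and positive were MRPL6, a homologue of L6 (0.34 ± 0.07), RSM7 (0.30 ± 0.07) and MRP7 (0.21 ± 0.06). Without Spt7m in glucose replicate 2 the positive ones were 5.

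RSM26 and RSM7 show the range of behaviour in the bromodomain set. RSM26, a mitochondrion-specific protein of the small subunit, had 51.8, 45.6 and 47.6 FPKM in WT in glucose and 85.3, 87.1 and 84.9 in WT in sucrose. In Gcn5m it had 84.7, 86.0 and 83.5 in glucose and 102, 100.01 and 95.9 in sucrose, and in Spt7m 77.2, 73.2 and 72.9 in glucose and 90.1, 96.1 and 88.8 in sucrose. The mutant glucose libraries were thus far above those of WT, and in Gcn5m close to WT in sucrose. RSM7 had 75.7, 82.0 and 79.1 in WT in glucose, 82.5, 83.1 and 81.0 in Gcn5m and 73.2, 81.3 and 76.8 in Spt7m. In sucrose RSM7 had 143, 148 and 140.0 in WT, 161, 162 and 147 in Gcn5m and 173, 170.2 and 175 in Spt7m. Its glucose libraries overlapped between strains, and in sucrose Spt7m was the highest.

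Gcn5m and Spt7m differed from each other in glucose. Of the 65 genes 36 were higher in Gcn5m and 0 lower, where 14% of all genes were higher and 13.6% lower. The median was 0.18, against 0.01 for all genes, and the largest were MRPL13 (0.35 ± 0.06) and MRPL35 (0.34 ± 0.05), both mitochondrion-specific, MRPL6 (0.35 ± 0.05) and MRPL7, a homologue of L5 (0.34 ± 0.07). Without Spt7m in glucose replicate 3, 23 were higher. In sucrose 1 was higher and 1 lower, where 8.27% of all genes were higher and 11.4% lower. They were MRP7 (0.19 ± 0.04) and RSM7 (-0.14 ± 0.05, limma adjusted p = 0.0401), and RSM7 was not called without Gcn5m in sucrose replicate 3 or any one of the Spt7m sucrose libraries (adjusted p = 0.0623 to 0.196). The 65 differences in sucrose ran from -0.16 to 0.19 with a median SE of 0.06, and 63 genes did not pass the test, which does not show that the mutants act alike.

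RSM10, MRP4 and MRPS28 were called in 14 of the 16 comparisons, the most of any of the 65, and no gene was called in fewer than 8. The comparisons share groups and are not independent. RSM10 in the Ada3 set had 79.1, 78.5 and 74.2 FPKM in WT in glucose, 119, 129 and 124 in WT in sucrose, 96.8, 92.2 and 91.7 in Ada3-3KR in glucose and 116, 117 and 112 in Ada3-3KR in sucrose. It had 105, 106 and 103 in Gcn5m in glucose, 199.9, 193 and 189 in Gcn5m in sucrose, 85.8, 94.5 and 97.5 in Spt7m in glucose and 185, 184 and 181 in Spt7m in sucrose. In each strain its glucose and sucrose libraries were apart.

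MRP4 is a homologue of bacterial S2 and overlaps the locus YHL005C on the opposite strand by 2 bases. In the Ada3 set it had 43.5, 46.1 and 43.7 FPKM in WT in glucose, 69.7, 69.6 and 62.1 in WT in sucrose, 54.3, 57.0 and 59.8 in Ada3-3KR in glucose and 72.0, 73.4 and 77.3 in Ada3-3KR in sucrose. MRP4 in the bromodomain set had 57.4, 57.9 and 57.6 in WT in glucose, 106, 105 and 94.2 in WT in sucrose, 92.7, 99.1 and 85.1 in Gcn5m in glucose, 138, 139 and 129.6 in Gcn5m in sucrose, 81.9, 81.2 and 81.9 in Spt7m in glucose and 142, 135 and 137 in Spt7m in sucrose. Gcn5m in glucose overlapped WT in sucrose, and all other mutant glucose libraries lay between those of WT in the 2 sugars. MRPL51, named above for its level, overlaps YPR099C on the opposite strand by 323 bases, and its values are uncertain for that reason.

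MRPS28, a homologue of S15, had 29.1, 29.3 and 32.6 FPKM in WT in glucose, 46.2, 48.1 and 48.7 in WT in sucrose, 36.6, 38.5 and 45.1 in Ada3-3KR in glucose and 50.4, 50.5 and 46.0 in Ada3-3KR in sucrose. MRPS28 in the bromodomain set had 32.5, 31.9 and 33.0 in WT in glucose, 60.1, 59.8 and 59.6 in WT in sucrose, 45.6, 43.4 and 47.6 in Gcn5m in glucose, 69.4, 72.2 and 69.9 in Gcn5m in sucrose, 40.5, 42.7 and 42.0 in Spt7m in glucose and 66.1, 69.9 and 65.6 in Spt7m in sucrose. Its sucrose libraries of both bromodomain mutants were above those of WT. MRPL16 in the mutants had 62.0, 65.7 and 61.2 FPKM in Gcn5m in glucose, 125, 122 and 119.9 in Gcn5m in sucrose, 58.1, 57.5 and 57.9 in Spt7m in glucose and 141, 140.4 and 128 in Spt7m in sucrose. Here the glucose libraries of the mutants were only a little above WT and the step between sugars was wide.

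**Figure D4:**
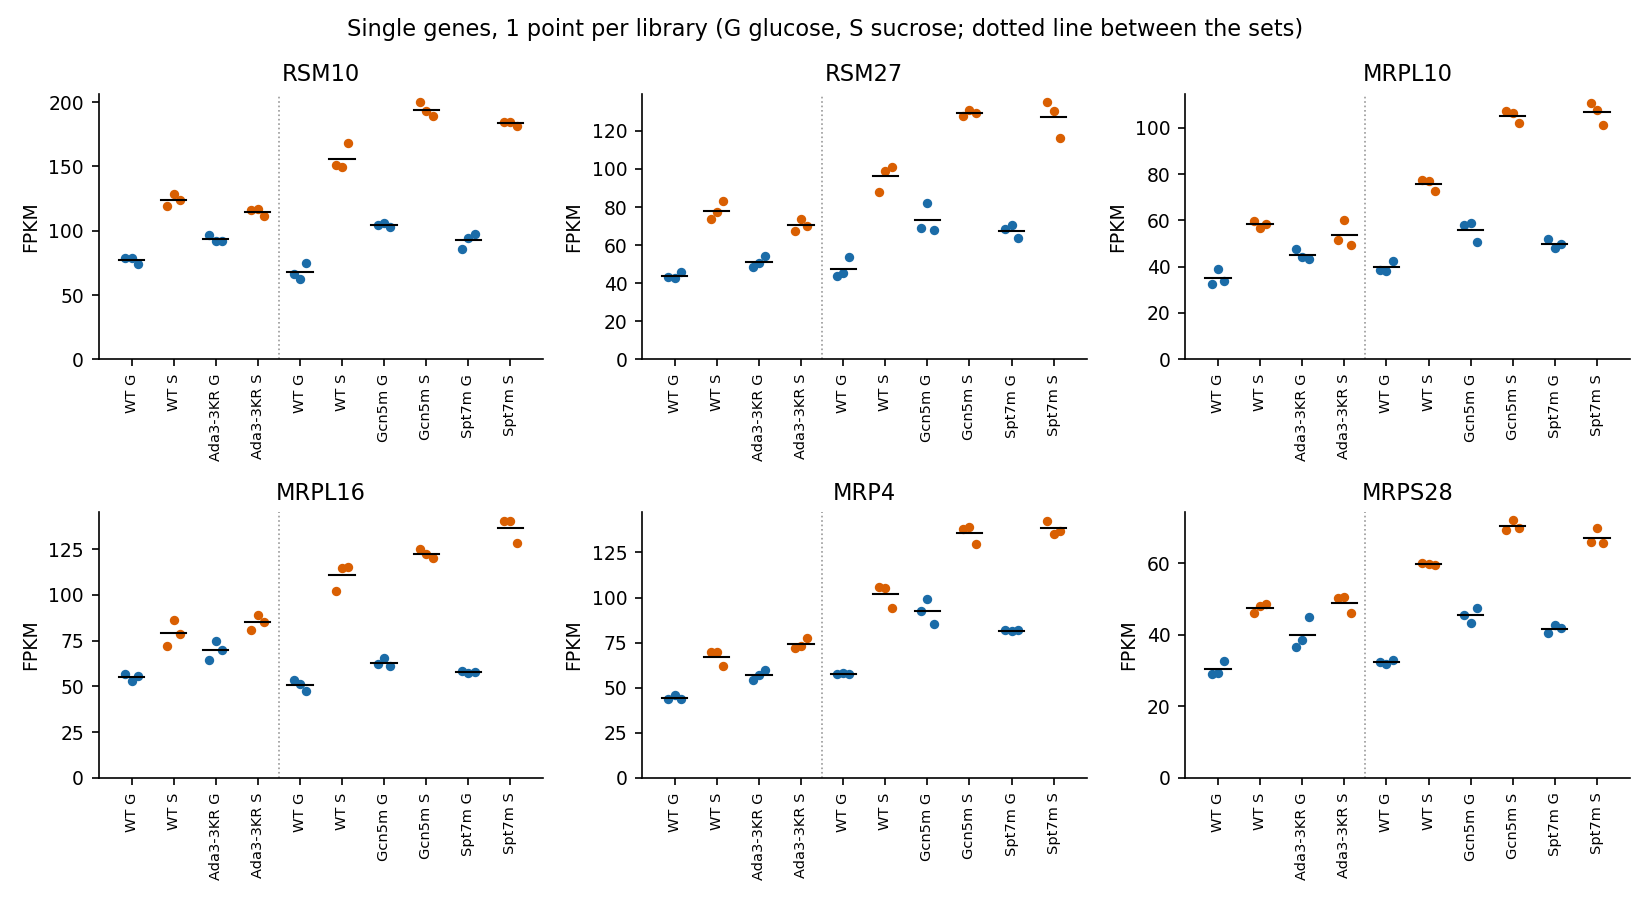
FPKM of 6 genes in each library (points, with the mean of 3 as a line), in glucose (G, blue) and sucrose (S, orange), for the Ada3 set left and the bromodomain set right of the dotted line. RSM10 reaches 199.9 in Gcn5m in sucrose, while in Ada3-3KR its libraries in sucrose (112 to 117) are closer to those in glucose (91.7 to 96.8).

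Genes that work with the mitochondrial ribosome were followed as lists. Of 14 other mitochondrial ribosomal proteins, whose symbols the naming rule missed, 14 rose with sucrose in WT of each set, with medians of 0.50 and 0.79. Of 10 mitochondrial translation factors 8 rose in each set, and of 19 genes for charging mitochondrial tRNA 16 and 17 rose. Of 10 mitoribosome assembly genes 8 and 10 rose, of 15 translational activators 9 and 13, and of 8 genes for mitochondrial RNA synthesis 5 and 7. The shares of all genes that rose were 32.7% in the Ada3 set and 50.9% in the bromodomain set. None of the genes of these lists fell in WT. With quantile normalization fewer rose in the Ada3 set, for example 10 of the 19 genes for tRNA charging and 4 of the 15 activators. In that scaling 1100 of all 5830 genes rose. In glucose, most of the 14 other ribosomal proteins were also higher in the mutants than in WT, 13 in Ada3-3KR, 13 in Gcn5m and 12 in Spt7m. The shares of all genes that were higher there were 40.2%, 20.8% and 15.7%. VAR1, the subunit encoded in mitochondrial DNA, was not analysed here.

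The nuclear genes of the respiratory chain followed another pattern in most comparisons of a mutant with WT, but not in the Ada3-3KR interaction. Of 34 such genes 30 and 34 rose with sucrose in WT of the Ada3 and bromodomain sets, where 32.7% and 50.9% of all genes did. In Ada3-3KR 3 rose and 7 fell with sucrose (median -0.05). These were 8.82% and 20.6%, where 32.9% of all genes rose and 17.7% fell, so the share that fell was near that of all genes. The Ada3-3KR interaction was negative for 39 of the 65 mitochondrial ribosomal protein genes (median -0.25). It was negative for 8 of the 14 other ribosomal proteins and positive for 0 (median -0.27). For the 34 respiratory chain genes it was negative for 30 and positive for 0 (median -0.31), where 21.6% of all genes were negative. Against WT, all 34 were higher in Ada3-3KR, both in glucose (median 0.79) and in sucrose (median 0.49). The 65 mitochondrial ribosomal protein genes had medians of 0.30 and 0.03 there, and 40.2% and 33.8% of all genes were higher. Against WT in glucose, 28 were lower and 2 higher in Gcn5m (median -0.31), and in Spt7m 20 were lower and 1 higher (median -0.25). The shares of all genes that were lower there were 41.2% and 37.5%. In sucrose 29 were lower and 0 higher in Gcn5m, where 42.6% of all genes were lower. In Spt7m in sucrose 27 were higher and 2 lower, where 28.8% of all genes were higher. Between these mutants in sucrose all 34 were lower in Gcn5m (median -0.69). There, 1 of the 65 mitochondrial ribosomal protein genes and 11.4% of all genes were lower. The medians kept their sign with quantile normalization and median rescaling, but in WT of the Ada3 set 22 and 19 of the 34 rose. There, 1100 and 1047 of all 5830 genes rose.

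Genes of the cytosolic ribosome differed in the other direction in most comparisons. Of 138, 77 fell and 1 rose with sucrose in WT of the Ada3 set, and 116 fell and 2 rose in WT of the bromodomain set. The shares of all genes that fell there were 13.9% and 15.7%. In glucose 119 were lower and 0 higher in Ada3-3KR than in WT, where 22.1% of all genes were lower. In Gcn5m in glucose 83 were lower and 2 higher, where 41.2% of all genes were lower. In Spt7m 49 were lower and 4 higher, and these 35.5% lower did not exceed the 37.5% of all genes that were lower, with medians of -0.10 for both. In Ada3-3KR 24 rose and 19 fell with sucrose, with a median of -0.03 that turned to 0.05 with quantile normalization. These 17.4% and 13.8% did not exceed the 32.9% and 17.7% of all genes.

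**Figure D5:**
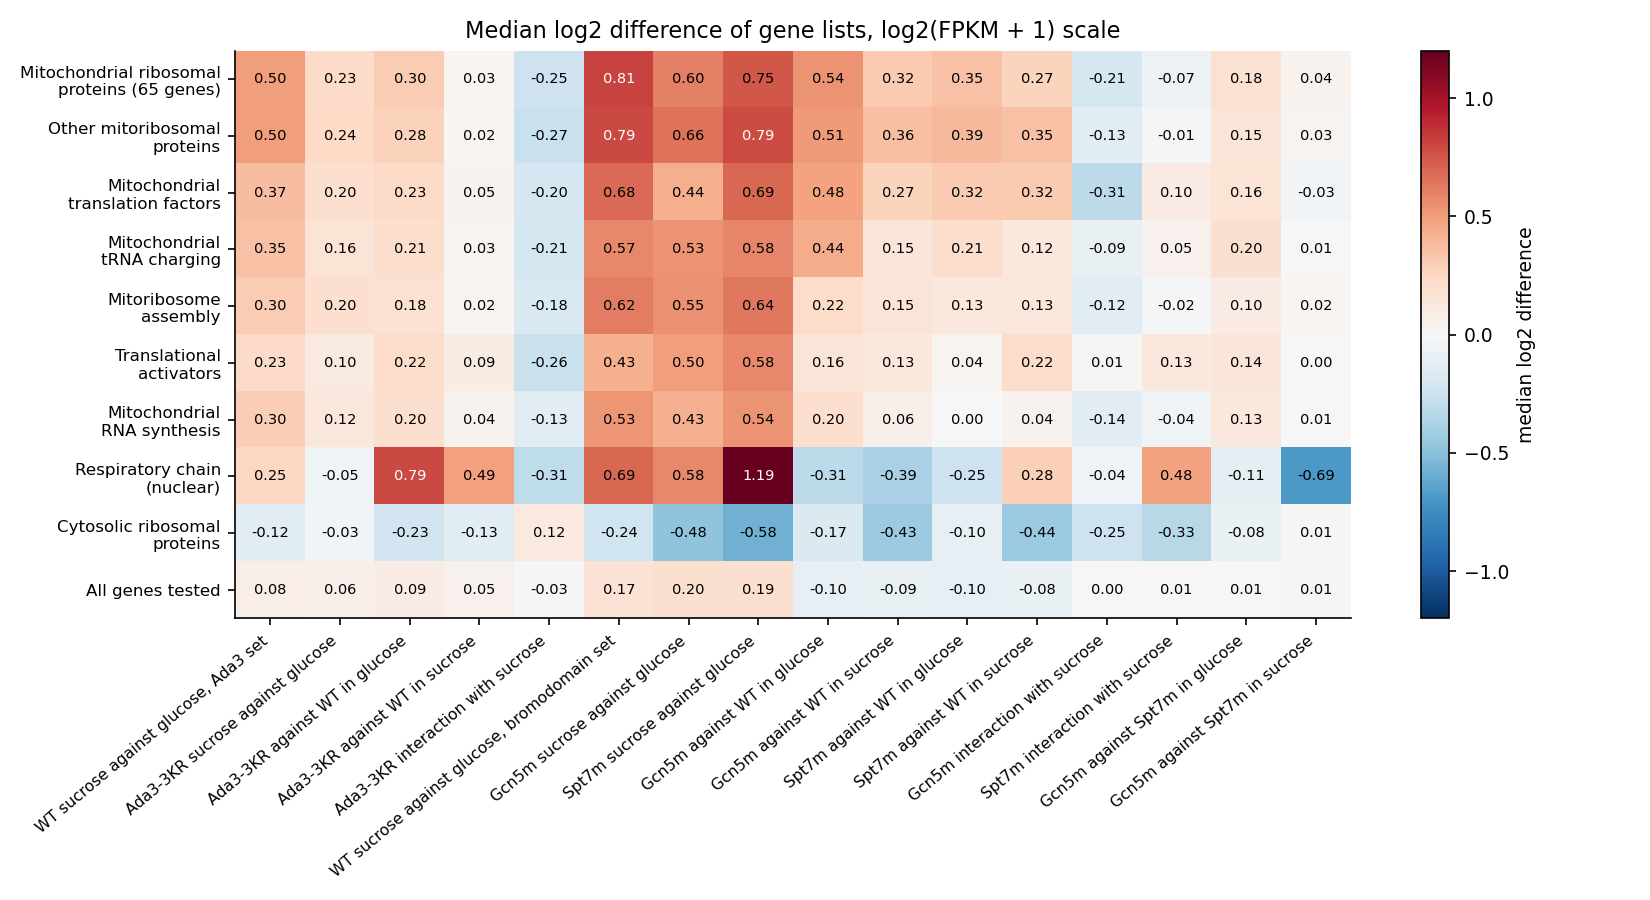
Median difference of the 65 genes, of 8 other gene lists and of all genes tested in each of the 16 comparisons, on the log2(FPKM + 1) scale (red higher, blue lower). The first row is positive in all comparisons between sugars, with 0.81 in WT of the bromodomain set, while the row of cytosolic ribosomal proteins is negative there (its -0.03 in Ada3-3KR turns to 0.05 with quantile normalization).

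PUF3 itself, the gene of the RNA-binding protein, rose with sucrose in WT of the Ada3 set (0.68 ± 0.09) and of the bromodomain set (1.01 ± 0.08). In the bromodomain set it had 9.56, 8.12 and 10.4 FPKM in WT in glucose, 18.2, 16.7 and 15.2 in Gcn5m and 14.7, 16.1 and 14.9 in Spt7m, so that both mutants were above WT (0.78 ± 0.08 and 0.65 ± 0.08). In Ada3-3KR in glucose the difference from WT was 0.00 ± 0.09 (limma adjusted p = 0.997). HAP4, the activating subunit of the Hap complex, rose in WT (0.61 ± 0.04 and 0.45 ± 0.03), Gcn5m (1.72 ± 0.03) and Spt7m (1.69 ± 0.03), and fell in Ada3-3KR (-0.21 ± 0.04). It was lower in Ada3-3KR than in its WT in glucose (-0.78 ± 0.04). There the 65 genes had a median of 0.30 and the 34 nuclear respiratory chain genes one of 0.79. Against WT in sucrose, HAP4 was lower in Ada3-3KR (-1.61 ± 0.04) and higher in Gcn5m (1.24 ± 0.03) and Spt7m (0.97 ± 0.03). A link between HAP4 and these genes was not tested.

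The 780 other genes with a TGTANATA match were examined after the results for the 65 were known. Of the 745 tested, 50.6% rose and 7.25% fell with sucrose in WT of the Ada3 set, with a median of 0.18. There 32.7% of all genes rose and 13.9% fell. In WT of the bromodomain set 70.5% rose and 7.79% fell, with a median of 0.33, where 50.9% and 15.7% of all genes did. In glucose 36.1% were higher and 30.2% lower in Gcn5m than in WT, with a median of 0.03. The shares of all genes were 20.8% and 41.2%. In Spt7m 25.1% were higher and 29.0% lower (median -0.04), where 15.7% and 37.5% of all genes were. In Ada3-3KR 50.9% were higher and 13.8% lower (median 0.17), where 40.2% and 22.1% of all genes were. These medians lie between those of all genes and those of the 65 genes, and the difference was not tested.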

How the data were processed

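The deposited values are FPKM per gene and library, 1 table per set, and were used as the authors deposited them. The submitters' processing notes list build R64 and the tools HISAT2 2.1.0, StringTie 1.3.3b and cutadapt 1.16 with no role or order, and the strand setting and annotation are not given in the sources used here. The tables hold no counts, so depth is unknown and no counting interval is given. Symbols turned into dates were restored for 2 genes of the bromodomain set, and 0 sample columns were left unused.

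Values were taken as log2(FPKM + 1), which understates the change of low genes. Genes whose mean over a set reached 1 FPKM entered a fit with limma 3.58.1 (R 4.3.3). It had 1 mean per group, a variance trend and, for each gene, 1 estimate of spread over all groups of the set. Python 3.11.15, pandas 2.3.3, Biopython 1.88 and matplotlib 3.10.9 made the summaries and figures. In simulated data for WT sucrose against glucose of the Ada3 set (5830 genes), 66, 88, 100 and 100% of genes changed by log2 0.3, 0.6, 1 and 2 were recovered, with 8 false calls, and for the bromodomain set (5841 genes) 74, 92, 94 and 98%, with 12.

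The 65 genes, the lists and the alternatives were chosen with earlier results of these data known. Named genes were, per comparison, up to 4 called genes with the largest difference in each direction, the 3 highest and 3 lowest levels of each subunit, and the genes called in the most comparisons. Values per library are given for the gene of each subunit with the largest difference in each set and for the most often called genes. Values per library of RSM7, RSM26 and PUF3, and the names of genes not called, were added after their values were seen. Marker genes and lists for other processes of mitochondrial translation were counted. The alternatives were leaving out each library, fitting only the compared groups, a replicate block, median rescaling, quantile normalization, no filter or one at 5 FPKM, and a pseudocount of 0.1. Same-numbered libraries deviated together in WT of the Ada3 set (correlations of 0.118 to 0.408 between sugars) but not in every pair of groups, so the replicate number was an alternative block only.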

Additional observations from a re-analysis of the deposited data

Results flagged for a closer look

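The results here are those in which the difference between sucrose and glucose itself differed between a mutant and its WT, tested as an interaction with limma (Benjamini-Hochberg adjusted p under 0.05). In Ada3-3KR it was more negative for 39 of 65 genes and more positive for 0, where 21.6% of all genes were more negative and 17.2% more positive. Among them were MRPL32 (-0.52), MRPL24 (-0.50), MRPL10 (-0.48) and RSM7 (-0.48). This was not particular to the 65 genes, since it was also more negative for 30 of 34 nuclear respiratory chain genes. In Gcn5m it was more negative for 35 and more positive for 1, where 20.7% and 20.9% of all genes were. These were led by MRPL44 (-0.61), RSM26 (-0.59), MRPL20 (-0.54) and MRPL38 (-0.48), and the positive one was MRP7 (0.29). In Spt7m it was more negative for 13 and more positive for 3, where 23.5% and 23.9% of all genes were. These counts are not above the share over all genes and concern single genes only. With quantile normalization the share of more negative genes was above that of all genes, as given above. RSM26 (-0.52), MRPL20 (-0.45), MRPL32 (-0.43) and MRPL37 (-0.41) were the most negative, and MRPL6 (0.34), RSM7 (0.30) and MRP7 (0.21) the positive ones. No group had the 4 or more libraries that a test for an outlying library needs.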

How the results depend on the processing

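The counts of called genes stayed within 1.5 times of the reported ones in the alternatives run, except as follows. With quantile normalization, 1 gene was lower in Ada3-3KR in sucrose against glucose and 1 in Ada3-3KR against WT in glucose (0 reported), 22 were negative in the Spt7m interaction (13 reported), and 4 were higher and 0 lower in Gcn5m against Spt7m in sucrose (1 and 1 reported). With median rescaling, 1 was lower in Ada3-3KR in sucrose against glucose, and 3 were higher and 0 lower in Gcn5m against Spt7m in sucrose. There, 2 were lower with a filter of 5 FPKM, and 2 were higher with only the compared groups in the fit. RSM7, the gene reported as lower, was not called in the fit of the compared groups (limma adjusted p = 0.0655). The cause was not tested.

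Leaving out single libraries gave 3 to 9 lower and 8 to 16 higher genes in Ada3-3KR against WT in sucrose, 3 to 5 positive in the Spt7m interaction, 23 to 33 higher in Gcn5m against Spt7m in glucose, and 1 to 2 higher and 0 to 1 lower in sucrose. The last counts changed without Spt7m in sucrose replicate 1 (0 lower) or 2 (2 higher, 0 lower). RSM7, the gene reported as lower, also lost its call without Gcn5m or Spt7m in sucrose replicate 3 (limma adjusted p = 0.196 and 0.123). Any gene counted as lower in those fits was thus not RSM7. Of 70 named values, 2 lost their call in at least 1 alternative (RSM27 in Ada3-3KR against WT in sucrose and RSM7 in Gcn5m against Spt7m in sucrose) and 0 turned sign.

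Scaling moved the median of all genes by -0.11 to -0.12 (WT of the Ada3 set) and by -0.21 to -0.25 (bromodomain set) between sugars. The share of higher genes among all called then went from 70.2% to 42.3% or 37.2% in WT of the Ada3 set, and from 76.4% to 45.0% or 37.5% in WT of the bromodomain set. It went from 64.997% to 49.9% or 48.3% in Ada3-3KR, from 70.5% to 45.4% or 43.0% in Gcn5m, and from 67.9% to 46.4% or 43.6% in Spt7m. Against WT in glucose it went from 33.6% to 48.8% or 46.2% in Gcn5m and from 29.5% to 48.0% or 47.5% in Spt7m.

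Replicate numbers did not pair the libraries throughout. In the Ada3 set same-numbered libraries correlated at -0.25 to 0.41 with a median of 0.14 (11 of 18 pairs over 0.1), and libraries of different number had a median of -0.11 (10 of 36 over 0.1). All 3 same-numbered pairs of WT in glucose and sucrose there were over 0.1 (0.118 to 0.408), and with the block 65 genes still rose in that comparison. In the bromodomain set the range was -0.43 to 0.34 with a median of -0.03, against 0.01 for different numbers. In the sets, 7 of 12 and 6 of 18 libraries correlated best with their own number. With the replicate block 5 genes were positive in the Spt7m interaction (3 without it), and no other count moved by over 1.5 times. The Ada3-3KR interaction uses all groups of its set, so a fit of the compared groups alone was not run.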
